A study of Mus musculus with 8 samples.

Results

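The genes described here are Vim, Fbn1, Postn, Sparc, Aspn and Igfbp7, 6 genes of dermal fibroblasts and their extracellular matrix, out of 6585 named genes with a probe on the array. They were chosen because an earlier analysis of the same 8 arrays had found them raised in the skin of near naked hairless mutant mice. Their mutant over wild type ratios are therefore given as a description, without a test. Each gene had a single probe, found by its RefSeq accession. All 6 passed the filter on missing values, as did 3779 genes in all.

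Whole skin of near naked hairless mutant pups aged 7 days was compared with skin of wild type pups of the same age on 8 arrays of 2 colours, each holding RNA of both genotypes. The mutant carries an altered hairless gene, Hr, and has a sparse coat. Mutant RNA was labelled with the red dye Cy5 on arrays 2, 4, 6 and 7, and on arrays 1, 3, 5 and 8 with the green dye Cy3. Per the design text the pups were 5 biological replicates of 1 litter. Which animal was on which array is not stated, so that some arrays must share an animal and p-values over arrays are too small. The sources used here do not give strain, sex, zygosity or pooling.

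Every value below is a log ratio of mutant over wild type, taken as log2. That direction is likely, since the labels list the sample before the control and the design text the mutant before the wild type, but it is not stated outright. With the opposite sign each "higher" below would read "lower". The columns were read as having the same direction on all 8 arrays. If its columns instead held Cy5 over Cy3, the ratios of Vim, Sparc and Igfbp7 would change sign (to -0.71, -0.33 and -0.12), while Fbn1, Postn and Aspn would stand at 0.64, 0.24 and 0.12. The table holds ratios and no levels, so that the amount of RNA cannot be compared between genes.

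The dermis is built by fibroblasts, which lay down collagen fibrils, fibrillin microfibrils and the proteins that regulate their assembly. Vimentin, the product of Vim, forms the intermediate filaments of fibroblasts and other mesenchymal cells. Fibrillin-1 (Fbn1) is the main protein of microfibrils, the scaffold on which elastin is deposited, and is altered in the tight skin mouse. Periostin (Postn) and osteonectin (Sparc) are matricellular proteins, which bind collagen and modulate cells without being structural. Asporin (Aspn) is a small leucine-rich proteoglycan that binds collagen and TGF-beta. Igfbp7 is a secreted protein that binds insulin-like growth factors and collagen. Vim, Sparc and Igfbp7 are also made by endothelial cells and pericytes, and Vim by macrophages. In whole skin, a change in the number of cells of a type and a change in RNA per cell cannot be told apart.

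The 120 bases before the transcription start of 5 of these genes are shown. They allow the core promoters of genes picked as raised in the mutant to be compared. That of Fbn1 is left out, since a longer RefSeq transcript covers part of it. The sequences are those of RefSeq on GRCm38.p6, read along the strand of the gene. Capitals mark 3 short elements of core promoters on either strand, which are the TATAAA element bound by the general transcription machinery, the element with the letters CCAAT that nuclear factor Y is known to bind, and the GGGCGG element of Sp1 and related factors. Vim lies at chr2:13574191-13574310 (plus strand), Postn at chr3:54359147-54359266 (plus), Sparc at chr11:55420081-55420200 (minus), Aspn at chr13:49544323-49544442 (plus) and Igfbp7 at chr5:77408046-77408165 (minus).
Vim: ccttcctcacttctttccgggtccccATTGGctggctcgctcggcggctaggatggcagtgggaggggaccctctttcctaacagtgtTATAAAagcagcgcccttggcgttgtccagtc
Postn: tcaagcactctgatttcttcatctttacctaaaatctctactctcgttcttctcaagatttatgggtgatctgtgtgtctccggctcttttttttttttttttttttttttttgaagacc
Sparc: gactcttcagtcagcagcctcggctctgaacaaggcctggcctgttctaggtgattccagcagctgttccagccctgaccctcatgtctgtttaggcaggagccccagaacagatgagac
Aspn: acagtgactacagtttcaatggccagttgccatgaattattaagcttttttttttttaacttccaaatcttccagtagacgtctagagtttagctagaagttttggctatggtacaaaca
Igfbp7: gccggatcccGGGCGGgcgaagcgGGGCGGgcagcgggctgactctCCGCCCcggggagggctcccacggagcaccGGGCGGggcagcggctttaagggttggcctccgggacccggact

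No motif of the 4 searched was common to the 6 windows. These include the window of Fbn1, part of which lies within a longer transcript. Vim had the TATAAA element 32 bases before its start. Of 27025 mouse promoters of the same length, 6.76% held this element at any position on either strand. Vim also had the CCAAT element on the opposite strand at 94 bases, and 22.1% of promoters held that element at any position on either strand. Igfbp7 had 4 GGGCGG elements, at 110, 96, 74 and 44 bases, and 26.9% of promoters held at least 1. The motif of the factor AP-1 (TGANTCA) was in none of the 6 windows and in 3.40% of all. The windows differed most in base composition: G and C made up 78.3% of the Igfbp7 window, 59.2% for Vim, 56.7% for Sparc, 49.2% for Fbn1, 35.0% for Aspn and 33.3% for Postn. Postn and Aspn thus stood near the low end of all promoters, with only 4.06% and 5.27% of them lower, and Igfbp7 near the high end, with 95.3% lower.

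The cytoskeletal member, Vim, had log2 ratios of 0.90, 0.21, 0.27 and 0.47 on arrays 2, 4, 6 and 7, with the mutant in Cy5, and of 1.48, 2.37, 2.27 and 1.40 on arrays 1, 3, 5 and 8, with the mutant in Cy3. All 8 values were above 0, and every value with the mutant in Cy3 exceeded every value with the mutant in Cy5. The mean was 1.17 ± 0.85 (SD, n = 8), or 2.25-fold.

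The microfibril gene Fbn1 had log2 ratios of 1.97, 1.33, 0.86 and 1.40 on arrays 2, 4, 6 and 7 and of 0.07, -0.27, -0.02 and 0.64 on arrays 1, 3, 5 and 8. Here the arrays with the mutant in Cy5 were the high ones, again without overlap, and 2 of the 4 arrays with the mutant in Cy3 were below 0. The mean was 0.75 ± 0.79 (SD, n = 8), or 1.68-fold. Arrays with the mutant in Cy5 averaged 1.39 ± 0.46 and those with it in Cy3 averaged 0.11 ± 0.38 (SD, n = 4 each).

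The matricellular gene Postn had log2 ratios of 1.83, 0.49, 0.90 and 0.75 on the arrays with mutant RNA in Cy5 and of 0.47, 0.18, 0.11 and 1.29 on those with it in Cy3, in the same order of arrays. The 8 values were all above 0, and the orientations overlapped. Its mean was 0.75 ± 0.58 (SD, n = 8), or 1.69-fold.

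Sparc had log2 ratios of -0.09, 0.88, 0.64 and 0.93 on the arrays with mutant RNA in Cy5 and of 0.30, 1.47, 0.48 and 2.79 on those with it in Cy3. Array 8, at 2.79, was its highest value and array 2 the only one below 0. With a mean of 0.93 ± 0.88 (SD, n = 8), Sparc had the widest spread of the 6 genes.

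The proteoglycan gene Aspn had no value on array 1. Its log2 ratios were 1.52, 1.15, 0.64 and 1.19 with the mutant in Cy5 and 0.61, 0.16 and 1.91 on arrays 3, 5 and 8. All 7 were above 0, with a mean of 1.03 ± 0.60 (SD, n = 7) and a fitted ratio of 1.01, or 2.01-fold.

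Igfbp7 had no value on array 3. Its log2 ratios were 0.68, 1.46, 1.14 and 0.81 with the mutant in Cy5 and 1.01, 0.69 and 2.08 on arrays 1, 5 and 8. All 7 were above 0 and none was under 0.68, which made Igfbp7 the steadiest of the 6 genes, with a mean of 1.12 ± 0.50 (SD, n = 7). Its fitted ratio was 1.14, or 2.21-fold.

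**Figure D1:**
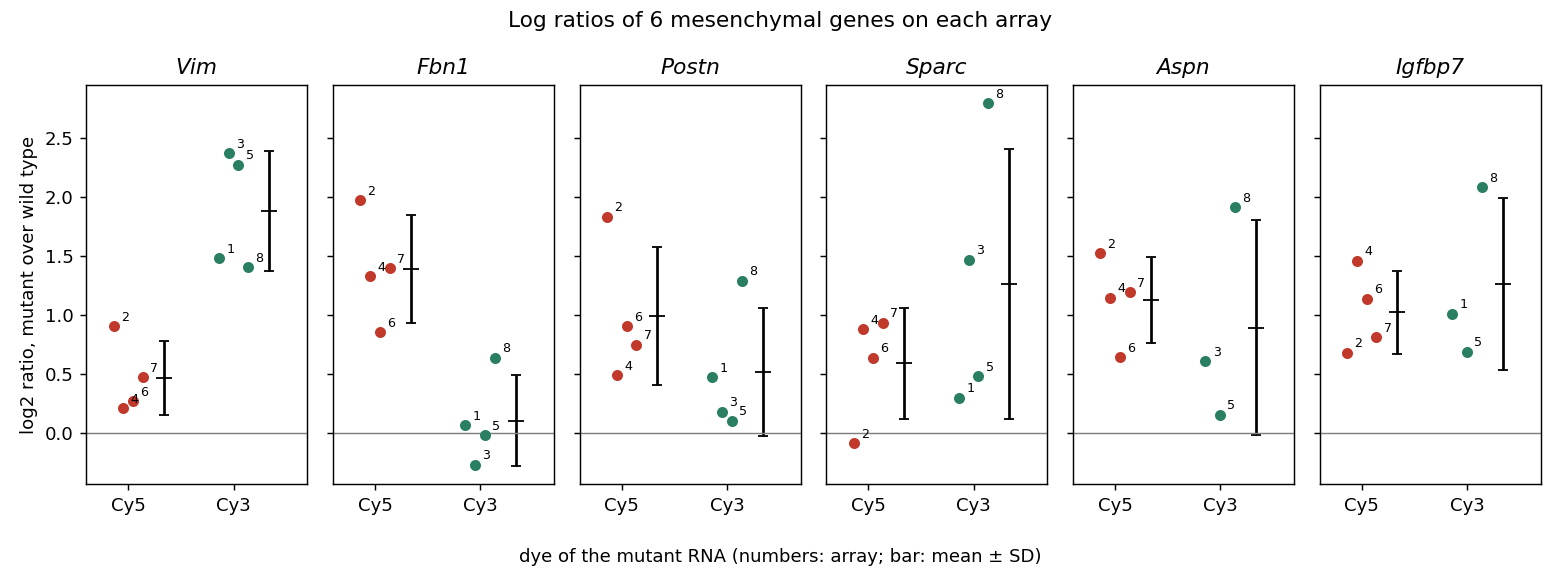
Log2 ratio of mutant over wild type (vertical axis) of 6 genes on each array, split by the dye of the mutant RNA; points are arrays with their number, bars the mean ± SD. Vim is higher on all arrays with the mutant in Cy3, Fbn1 on all with the mutant in Cy5, and the orientations overlap for the other 4 genes.

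Ordered by fitted ratio, the genes ran from Vim at 1.17 through Igfbp7 at 1.14, Aspn at 1.01, Sparc at 0.93 and Postn at 0.75 to Fbn1, also at 0.75. The steps between neighbours were far smaller than the SD over arrays of any of the 6, which lay between 0.50 and 0.88. Of all genes tested, 4 of the 6 members and 0.662% of the 3779 genes were past an adjusted p of 0.05 as higher in the mutant (limma). These 4 were Vim, Igfbp7, Aspn and Fbn1, and since the members were chosen on this contrast the count supports nothing. Likewise 4 members, Vim, Postn, Aspn and Igfbp7, were above 0 on every array with a value, against 2.86% of the genes tested. All 6 had a mean above 0 in both orientations, as had 22.9% of the genes tested.

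The dye part of a ratio is its value with the mutant in Cy5 minus that with the mutant in Cy3. It was not used to choose the genes and was tested. If the columns held Cy5 over Cy3, this difference would reflect genotype instead, and the 2 cannot be told apart here. As read here, the dye part was -1.42 ± 0.37 (SE) for Vim and 1.28 ± 0.37 for Fbn1. These 2 genes thus leaned to opposite dyes by similar amounts. Neither passed the test over all genes (limma, adjusted p = 0.0609 and 0.0680), where 1.75% of the genes passed. At an unadjusted p of 0.05 these were the 2 members past the test, as were 30.9% of all genes. An exact permutation test over the arrays, two-sided and unadjusted among the 6 genes examined, gave p = 0.0286 for each, the smallest that 4 arrays against 4 can give. Orientations that did not overlap were frequent on these arrays, at 26.4% of the genes tested (14.8% higher with the mutant in Cy5 and 11.6% higher with it in Cy3), whereas 84.0% and 78.6% of all 3779 genes had a smaller dye part in size than Vim and Fbn1. With arrays left out in turn, each of the 2 passed in 1 of 8 fits, that without array 8 (adjusted p = 0.0323 and 0.0330), and the other fits ran up to 0.142 and 0.161. Both passed with less weight on noisy arrays (0.00667 and 0.0179), and neither did with arrays 4 to 8 alone (0.317 and 0.392).

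For the other 4 genes the dye part was 0.48 ± 0.42 (SE) for Postn, -0.67 ± 0.53 for Sparc, 0.23 ± 0.48 for Aspn and -0.24 ± 0.44 for Igfbp7. Their adjusted p-values ran from 0.400 to 0.761 (limma), and the exact permutation test gave 0.314, 0.400, 0.629 and 0.686. Whether the dye part differed between the genes was not tested.

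**Figure D2:**
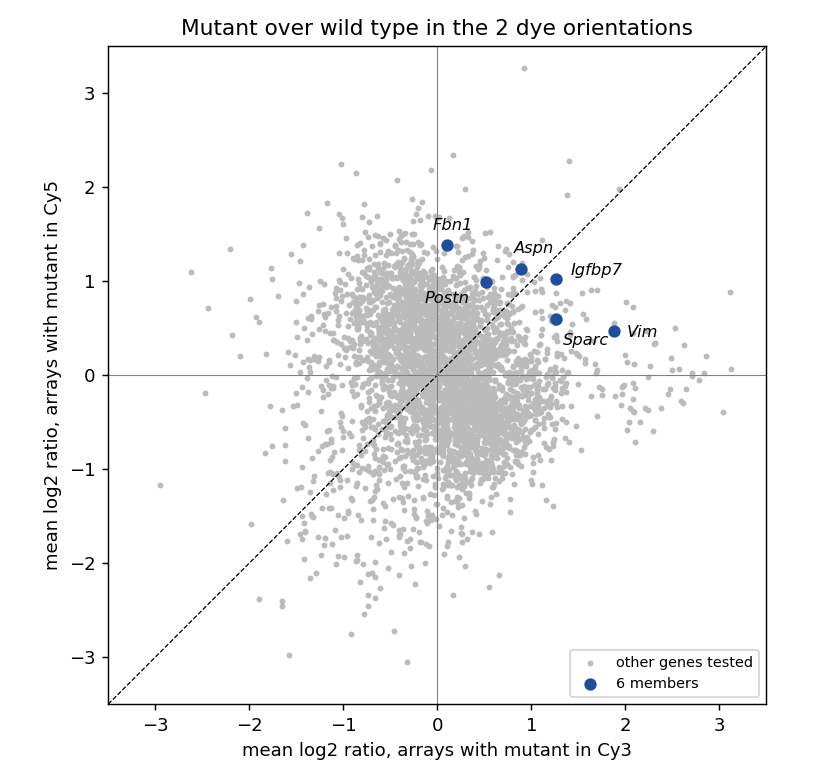
Mean log2 ratio of each of 3779 genes on arrays with the mutant in Cy5 (vertical axis) against the mean on arrays with the mutant in Cy3 (horizontal axis); the dashed line marks equal values. All 6 members (blue) lie above 0 on both axes, with Fbn1 at 1.39 and 0.11, Vim at 0.47 and 1.88, and Aspn and Igfbp7 nearest to the line.

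The spread of values was not the same on all arrays, with an SD over probes from 0.57 on array 5 to 1.60 on array 2. The rank of a gene among all probes of its array does not depend on that spread. Igfbp7 ranked highest by this measure, with a median percentile of 94.6 over its 7 arrays and a lowest one of 67.8, on array 2. The other medians were 86.4 for Fbn1, 85.8 for Sparc, 85.4 for Aspn, 82.9 for Postn and 82.4 for Vim. Vim ran from 54.9 on array 4 to 99.9 on array 5, the array with the narrowest spread, where a ratio of 2.27 outranked nearly every probe. Fbn1 fell under the middle of the array on 2 arrays, at 43.0 on array 3 and 49.3 on array 5, and Sparc on 1, at 46.7 on array 2. This order rests on the direction of the columns. Read as Cy5 over Cy3, the median percentiles would be 85.2 for Aspn, 74.5 for Fbn1, 67.8 for Igfbp7, 58.0 for Postn, 38.6 for Sparc and 31.6 for Vim.

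**Figure D3:**
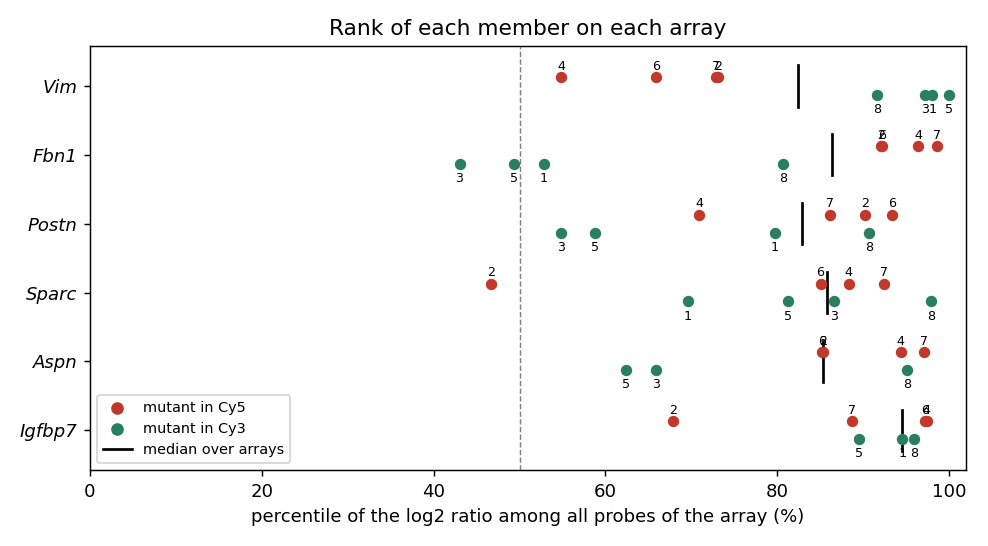
Percentile of each gene's log2 ratio among all probes of the same array (horizontal axis, %), by gene; colours give the dye of the mutant RNA, numbers the array, and black bars the median over arrays. Vim lies at 91.7 or higher with the mutant in Cy3 and at 73.1 or lower with the mutant in Cy5, while Igfbp7 has a single value under 88.

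Array by array, between 4 and 6 members were above 0. The mean over the members with a value was lowest on array 5, at 0.61, and highest on array 8, at 1.69. The median of all genes tested stayed between -0.03 and 0.16 on every array. Among the arrays with the mutant in Cy3, array 8 held the highest value of each member except Vim, and for Sparc, Aspn and Igfbp7 it held the highest of all arrays. Fbn1 was the lowest member on arrays 1, 3, 5 and 8, and Vim the lowest on arrays 4, 6 and 7. Replicate spots of Gapdh on the same arrays, 219 to 228 in number, had SDs between 0.21 and 0.91 within an array. Their mean log2 ratio was 0.70 on array 2, 0.59 on array 4 and -0.25 on array 7, and between -0.07 and 0.16 elsewhere. Whether single spots of the members vary as much was not tested.

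Leaving out array 8 moved the fitted ratio of Sparc to 0.67, of Aspn to 0.75 and of Igfbp7 to 0.94, the lowest values for these genes over 8 such fits. All 6 genes kept a fitted ratio above 0 in each of the 8, with Vim between 1.09 and 1.25 and Fbn1 between 0.65 and 0.83. The count of members past the threshold was less steady, at 1 without array 1, 4 or 6, at 2 without array 2, 5, 7 or 8 and at 3 without array 3. Vim was past it in all 8 fits, Igfbp7 in 5, Fbn1 in 1 and Aspn in none, counts that describe the contrast on which the genes were chosen. With arrays 4 to 8 alone no member was past the threshold, and all 6 had fitted ratios above 0, from 0.71 for Postn to 1.26 for Igfbp7.

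**Figure D4:**
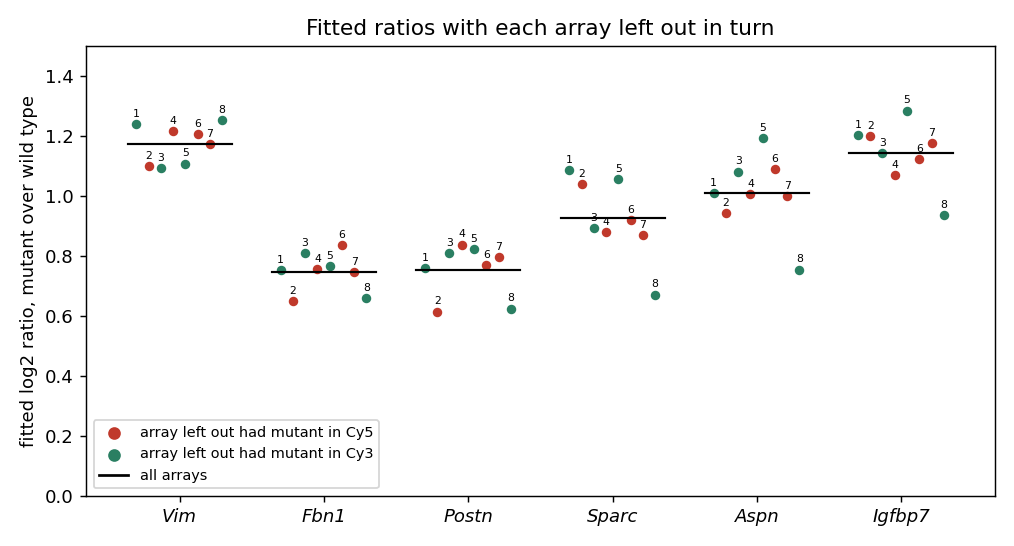
Fitted log2 ratio of mutant over wild type (vertical axis, from 0) of each gene with 1 array left out, marked by the number of that array and coloured by the dye of its mutant RNA; the black line is the value with all arrays. Every value is above 0, and leaving out array 8 gives the lowest value for Sparc, Aspn and Igfbp7.

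The name of the group was checked against other markers of dermal fibroblasts, the 6 genes left out. Of 26 listed, 20 had a probe and 9 were tested, and none passed in either direction (limma), with 4 higher and none lower at an unadjusted p of 0.05. At that p, 10.2% of all 3779 genes were higher and 9.31% lower. Of the 9, 7 had fitted ratios above 0, with a median of 0.45, against 0.05 for all genes tested, of which 55.3% were above 0. Pdgfra, a growth factor receptor of fibroblasts, had the highest ratio, at 1.09 ± 0.45 (SE, adjusted p = 0.224), and was at 3.98 on array 8 and no higher than 1.17 elsewhere. Col6a1, a chain of collagen VI, stood at 0.49, Thy1 at -0.03 and the proteoglycan gene Lum at -0.21. Other markers were measured too seldom to be tested, among them Col1a2 on 5 arrays, from -1.79 to 1.05. Dpt, Pdgfrb and Prrx1 were each above 0 on 5 of 5 arrays, Dpt with 2.55 on array 8 and at most 0.71 elsewhere. Dpp4 was below 0 on 4 of 5 arrays. The remaining untested markers with values lay on both sides of 0. A rise shared by fibroblast markers in general was thus not shown, and the members are best called by their names.

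The relatives of Fbn1 in elastic fibres were mixed in sign. Of 24 listed, 9 were tested, 6 with fitted ratios above 0 and 3 below, and 1, Ltbp2, was lower in the mutant, where 2.80% of all genes were. Ltbp2 encodes a protein that associates with fibrillin-1 microfibrils. Its log2 ratios were -1.83, -2.03, -2.18 and -1.62 on arrays 2, 4, 6 and 7 and -1.25, -0.65, -0.34 and -1.15 on arrays 1, 3, 5 and 8. All 8 values were below 0, and the fitted ratio was -1.38 ± 0.18 (SE, limma, adjusted p = 0.00354). Leaving out an array in turn left it between -1.47 and -1.31, past the threshold each time (adjusted p up to 0.0216). It missed the threshold with arrays 4 to 8 alone (-1.34, adjusted p = 0.0628) and with the columns read as Cy5 over Cy3 (-0.53, adjusted p = 0.0822). The other 8 did not pass, with Fbln2 at 0.55, Fbln1 at 0.45 and Fbln5 at -0.13, and the list had a median of 0.09.

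The relatives of the other members gave no call in either direction (limma). Over them, the elastic fibre genes and the fibroblast markers together 50 genes were tested, and at an unadjusted p of 0.05 there were 11 higher and 3 lower, beside the 10.2% and 9.31% of all genes. Of 13 small leucine-rich proteoglycans, the family of Aspn, 5 were tested, 4 of them with ratios below 0 and a list median of -0.10. Fmod, whose product fibromodulin binds collagen, stood at -0.84 ± 0.27 (SE, adjusted p = 0.116) and below 0 on 7 of 7 arrays, and Dcn, encoding decorin, at 0.47, with -4.71 on array 2 and 3.32 on array 8. Of 24 matricellular genes, 11 were tested and 4 had ratios above 0, with a median of -0.06. Ccn2, a growth factor of connective tissue, stood at 1.84 ± 0.52 (SE, adjusted p = 0.0757), which rested on arrays 1 to 4 (3.70, 3.16, 2.26 and 4.68), while the other 4 arrays gave -0.23, 0.22, 1.05 and -0.14. Sparcl1, the closest relative of Sparc, stood at 1.26 ± 0.34 (SE, adjusted p = 0.0745) and ran from -0.03 on array 5 to 4.23 on array 2. Spp1, encoding osteopontin, stood at -0.75.

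Of 15 genes of the insulin-like growth factor system, 8 were tested and 7 had ratios above 0, with a median of 0.16. Igfbp4 stood at 0.65 ± 0.22 (SE, adjusted p = 0.132), the protease gene Htra1 at 0.42, Igfbp3 at 0.03 and Igfbp6 at -0.33, against 1.14 for Igfbp7. Only 3 of 15 genes of intermediate filaments other than keratins were tested, all above 0, with Lmna, the gene of the nuclear lamins A and C, at 0.67 (adjusted p = 0.102, limma). Of 17 genes of TGF-beta signalling, which is known to raise Postn in fibroblasts, 8 were tested, with a median of 0.09. Smad3 stood at 0.53 (adjusted p = 0.166, limma), above 0 on 8 of 8 arrays, and Tgfb1 at -0.40. Over all these lists, none was higher past the adjusted threshold and 1, Ltbp2, was lower.

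**Figure D5:**
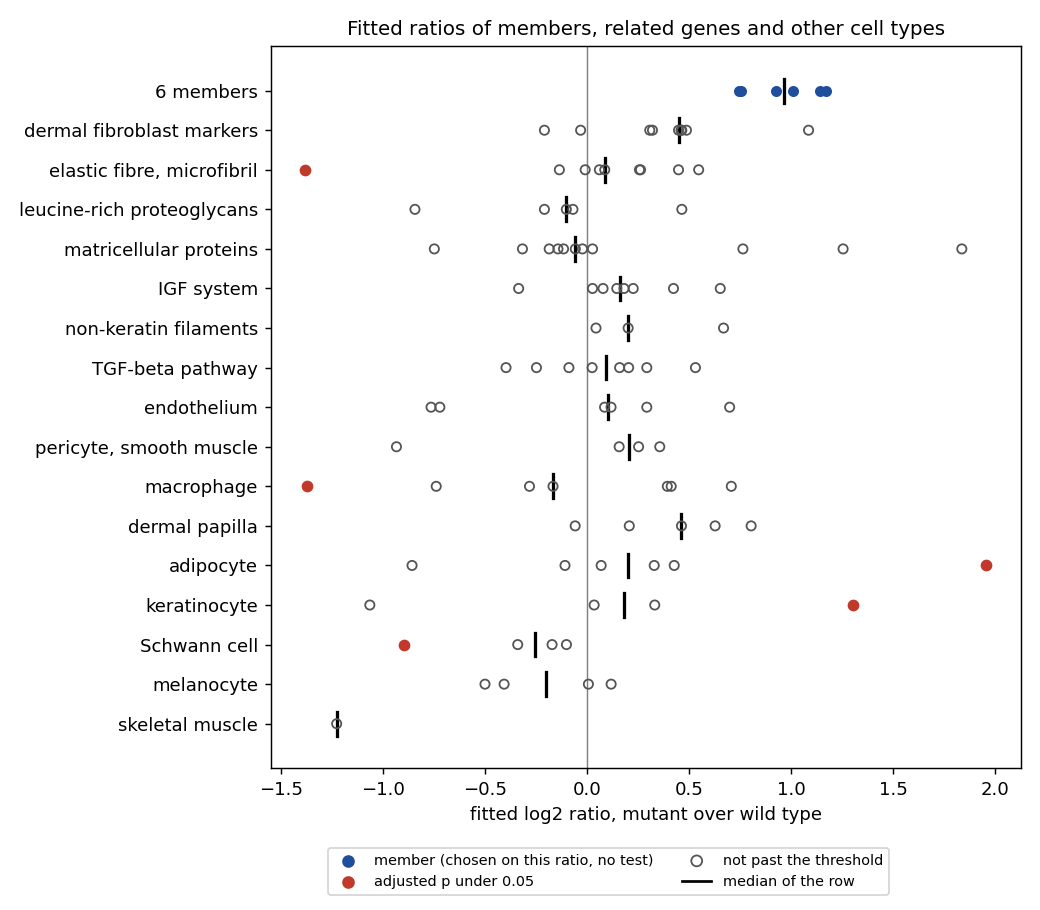
Fitted log2 ratio of mutant over wild type (horizontal axis) of the 6 members, of lists of related genes and of markers of other cell types; the members are blue, list genes past an adjusted p of 0.05 filled red and the others open, and black bars are medians. The red points are Ltbp2 at -1.38, C1qb (macrophage) at -1.37, Mbp (Schwann cell) at -0.90, Krt1 (keratinocyte) at 1.30 and Cfd (adipocyte) at 1.96.

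Cells other than fibroblasts that make Vim, Sparc or Igfbp7 were read through their own markers. Of 14 endothelial markers 6 were tested, from Emcn at -0.76 and Pecam1 at -0.72 to Cdh5 at 0.70, with a median of 0.10. The ratio of Emcn averaged values of opposite sign, with -2.86, -4.49 and -0.50 on arrays 1, 3 and 5 and 0.36, 1.34 and 1.58 on arrays 4, 6 and 7. Of 11 markers of pericytes and smooth muscle 4 were tested, from Rgs5 at -0.93 to Tagln at 0.36, with a median of 0.21. Neither list had a member past the threshold (limma). At an unadjusted p of 0.05, 1 was higher and 1 lower in the first and 1 lower in the second. At that p, 10.2% of all genes were higher and 9.31% lower. Over the markers of all other cell types 41 genes were tested, with 7 higher and 8 lower at that p. Of 7 macrophage genes tested 1 was lower, C1qb, at -1.37 ± 0.25 (SE, limma, adjusted p = 0.0141), where 2.80% of all genes were. The list was mixed, with 2 higher and 2 lower at an unadjusted p of 0.05, Tyrobp at 0.71, Aif1 at 0.41, Lyz2 at -0.74 and a median of -0.17. Of 11 markers of the dermal papilla, the mesenchyme at the base of the hair follicle, 5 were tested and had a median of 0.46. The highest were Vcan at 0.81 and Fgf7 at 0.63, and no call was made (limma, 2 higher at an unadjusted p of 0.05).

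Among the remaining cell types of skin, 2 markers were higher and 1 lower (limma), where 0.662% of all genes were higher and 2.80% lower. Cfd, encoding complement factor D, rose by 1.96 ± 0.33 (SE, adjusted p = 0.0102) as the 1 call among 6 adipocyte genes tested, while Car3 stood at -0.86 (adjusted p = 0.0667, below 0 on 7 of 7 arrays) and Pparg at -0.11. Krt1, a keratin of the upper epidermis, rose by 1.30 ± 0.27 (adjusted p = 0.0241) as the 1 call among 4 keratinocyte genes, while Ivl, encoding involucrin of the upper epidermis, stood at -1.06 (adjusted p = 0.0733). Cfd and Krt1 were above 0 on 7 of 7 arrays. Mbp, a myelin gene and the 1 call among 4 Schwann cell genes, fell by 0.90 (SE 0.20, adjusted p = 0.0342). With arrays left out in turn, Cfd kept its call in all 8 fits, C1qb and Krt1 lost theirs without array 1, 5 or 6 (adjusted p up to 0.0604 and 0.103), and Mbp kept it only without array 3 or 4 (adjusted p up to 0.109). None of 4 melanocyte genes passed, and in skeletal muscle the 1 gene tested, Tnnt3, stood at -1.23 (adjusted p = 0.0721). The part of other cell types in the ratios of the 6 members was not tested.

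Of 1609 other genes with values on all 8 arrays, the 6 most like the members were found by the mean absolute difference from the members' mean on each array. They were Snrpn at 0.24, the serpin gene Serpinb3a at 0.24, the apoptosis gene Bak1 at 0.33, Serpinf2 at 0.33, the RNA helicase gene Ddx3x at 0.33 and Mcpt2, a protease gene of mast cells, at 0.33, where the median of all ranked genes was 0.99. Their fitted log2 ratios lay between 0.65 and 1.05. None of them is in the lists of matrix genes used here. At most 50 of the 1609 genes could come from those lists, so that the absence says little. By the same measure Aspn was 0.27 from the mean that it enters, Igfbp7 0.33, Postn 0.41, Sparc 0.45, Fbn1 0.66 and Vim 0.76, so that Vim and Fbn1 were the members least like the group.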

How the data were processed

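The authors deposited 1 table of 23232 rows with a log ratio of the 2 channels per spot and array, taken here as log2 values, since ratios in base 10 would be wider than a scanner can measure. A natural log was not tested for, and sizes rest on base 2. The sources used here do not give image analysis, normalization, base or direction. Dye coupling and hybridization followed TIGR protocols, per the labels. Spot intensities were not analysed here, and the number of arrays limits the precision. Arrays had values for 41.3% to 88.3% of rows.

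Blank, buffer and Alien control spots (864, 275 and 96) were left out. Rows were named by RefSeq accession (6747 rows) or synonym (77 rows) through mouse gene tables of GRCm38.p6, 15173 rows stayed unnamed, and spots of a probe and the probes of 8 genes were averaged. Genes with values on at least 3 of 4 arrays of each orientation were fitted in limma 3.58.1 under R 4.3.3 for the mean ratio, with the dye orientation as a term, empirical Bayes moderation and Benjamini-Hochberg adjustment over 3779 genes at 0.05. The fit was tested on simulated data with independent arrays and few dye differences, which does not cover arrays that share an animal. Over all probes, arrays of opposite orientation had a median correlation of -0.02 and arrays of the same orientation one of 0.49. Alternatives were other scalings, filters, dye readings and array weights, and leaving out each array.

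The members and the lists were chosen with earlier results of these data known. Named genes are the members, the 6 genes most like the members, and certain list genes. Those list genes were past the threshold or among the 2 highest and 2 lowest of their list. Col1a2, Dpt, Pdgfrb, Prrx1 and Dpp4 were added after their values were seen.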

Additional observations from a re-analysis of the deposited data

Results flagged for a closer look

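Of 70 genes examined with Dixon's test for a single array apart from the rest, 10 had one, and none of these was a member. The nominal rate of 1 in 20, or 3.5 genes, cannot be set against this count. Many of the genes were named for extreme ratios, and the arrays differed in spread. Array 8 stood above the others for Pdgfra (3.98), Fbln1 (1.71), Lep (1.46) and Lor (1.40). Array 2 stood below them for Dcn (-4.71), Spp1 (-2.50) and Pecam1 (-1.93). Array 7 was low for Fbln5 (-2.15) and Bfsp1 (-2.32), and array 5 for Mcpt2 (0.15).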

How the results depend on the processing

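Read as Cy5 over Cy3, Vim stood at -0.71, Sparc at -0.33, Igfbp7 at -0.12, Aspn at 0.12 and Krt1 at -0.40, with 62 genes higher and 4 lower in all and 0 calls in the lists. Under every other alternative run, the members that could be fitted had ratios above 0, between 0.58 (Postn) and 1.32 (Vim). Aspn and Igfbp7 could not be fitted where values on all 8 arrays were required. The calls moved more. Against 25 higher and 106 lower genes, scaling gave 43 and 163, quantile normalization 128 and 222, array weights 143 and 285, no dye term 5 and 59, and arrays 4 to 8 alone 2 and 10. Values required on all 8 arrays gave 55 lower, and on 2 of each orientation 12 higher. Members past the threshold numbered 6 with quantile normalization or array weights, 2 with median centring and 1 without a dye term.

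The dye part of Vim was past the threshold with scaling (-1.77), quantile normalization (-1.88), array weights (-1.58) and values on all arrays (-1.42), and that of Fbn1 in the last 3 of these (1.35, 1.09 and 1.28). The sign of small dye parts changed for Sparc (0.091) and Igfbp7 (0.21) with array weights and for Aspn (-0.041) with arrays 4 to 8. Related genes called higher and lower were 2 and 2 with scaling, 4 and 2 with quantile normalization, 6 and 2 with array weights, 1 higher with values on all arrays and 0 lower with arrays 4 to 8. Markers of other cells called higher and lower, 2 and 2 at first, were 4 and 6 with quantile normalization, 5 and 7 with weights, 1 and 1 without a dye term, 0 and 0 with arrays 4 to 8, 5 lower with scaling, 0 higher with values on all arrays and 1 lower with the looser filter. The causes were not tested.

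Without 1 array, higher genes numbered 6 to 21 and lower genes 47 to 112. The dye part ranged from -1.58 to -1.25 for Vim, 1.09 to 1.46 for Fbn1, -0.13 to 0.74 for Aspn and -0.52 to 0.17 for Igfbp7. Related genes called were 0 to 1 higher, and markers of other cells 1 to 2 higher and 0 to 3 lower. Each array is itself a pair of genotypes, so that the test of the mean ratio was already paired by array. No further pairing was run.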
